A study of Canis lupus familiaris with 4 samples.

Results

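The cell cycle and mitosis genes described here are 44 named genes that drive cell division, taken by gene symbol. Probe sets with 1 matching symbol were found for 38 of them, among the 15115 genes with a symbol on the array. The genes were read in 3 phases: 13 G1 regulators (cyclins, kinases, inhibitors, E2F1 and PLK2), 11 replication genes and 20 mitosis genes. The RNA came from 4 canine glioblastoma lines, each hybridized to 1 Affymetrix canine array. J3T-1 and J3T-2 are subclones of the same parental dog glioma cells, and their labels give high annexin A2 (ANXA2) for J3T-1 and low ANXA2 for J3T-2. J3T-1shA is J3T-1 with ANXA2 knocked down, and J3T-2A is J3T-2 with ANXA2 overexpressed. All 4 lines were grown in the same serum-containing medium, and the cell density at harvest is not given in the sources used here. Each engineered line is set against its unmodified parent, since no vector control array was analysed here. The study asked which genes follow ANXA2. Ratios set the line labelled ANXA2-high over the one labelled ANXA2-low, as J3T-2A over J3T-2 (the overexpression pair), J3T-1 over J3T-1shA (the knockdown pair) and J3T-1 over J3T-2 (the parental pair). The parental pair shares an array with each of the others.

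Cells enter division when D-type cyclins with CDK4 or CDK6, and then E-type cyclins with CDK2, phosphorylate the retinoblastoma protein and release E2F factors. E2F switches on the genes for licensing and copying DNA, and inhibitors such as p21 (CDKN1A), p27 (CDKN1B) and p18 (CDKN2C) hold the kinases back. In G2 and mitosis CDK1, the polo and aurora kinases and the spindle checkpoint take over. Deregulated G1 control is common in glioblastoma, and transcripts of replication and mitosis genes are widely used to gauge the share of cycling cells.

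The authors' signals are intensities on a linear scale, with each array scaled to a common trimmed mean. Each gene is given by its brightest probe set over the 4 arrays. A gene counted as measured at a mean signal of at least 250 over all 4 arrays, which 6581 genes reached, and the same genes then stood in every comparison. Signals of different probe sets are not on a common scale, so levels are compared between arrays and never between genes. Without replicates no ratio was tested or given a p-value, and precision is limited by the 1 array per line. As the only measure of error, log2 ratios from a second measured probe set of the same gene differed from those of the first with an SD of 0.27 in the overexpression pair, 0.35 in the knockdown pair and 0.33 in the parental pair (3559 genes). This SD does not hold the variation between cultures. The brightest ANXA2 probe set did not follow the labels, with a log2 ratio of -0.07 in both engineered pairs, and the second gave 0.23 for overexpression and -0.09 for knockdown, so arrays are named as labelled. Of 6 listed glioma and neural stem markers, VIM, SOX2 and CD44 were measured at 250 or more on all 4 arrays, NES reached it in J3T-1shA alone (345.9, against 94.9 to 150.2 elsewhere), and GFAP and S100B lay at or under 33.6. Markers of other cell types at 250 or more on every array were NEFL of neurons (2134 to 15463, highest in J3T-2), C1QA of microglia (298.0 to 661.5, highest in J3T-1, with PTPRC, CD68 and AIF1 under the limit) and DCN of fibroblasts (387.9 in J3T-1 and 794.8 to 1292 elsewhere), 3 of the 15 listed, and their part in the results was not tested. The endothelial marker PECAM1 reached 773.2 in J3T-2 alone. In bulk RNA, fewer dividing cells and less of a transcript in each cell cannot be told apart.

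Most cell cycle genes differed little between the 4 lines. Of the 38 genes, 34 were measured: 10 of 13 G1 regulators, all 11 replication genes and 13 mitosis genes. Across the 4 arrays the highest signal of a gene was a median of 1.46 times the lowest, against 1.42 times over all 6581 genes. The ratio of highest to lowest ran from 1.24 to 1.90 for replication genes and from 1.16 to 1.94 for mitosis genes. Only among G1 regulators did measured genes span over 2-fold, and these were CDKN1A (3.46 times), CCND2 (2.27 times) and PLK2, whose highest signal was 4.30 times the limit of 250 while its lowest lay under it. The arrays nonetheless held different places. The array labelled J3T-1shA was the highest of the 4 for 18 of 34 genes (52.9%, against 27.1% of all genes), the one labelled J3T-1 for 12 (35.3%, against 32.8%), the one labelled J3T-2A for 3 (8.82%, against 14.4%) and the one labelled J3T-2 for CDK4 alone (2.94%, against 25.6%). These counts use the brightest probe sets. Among the 12, CDK1 and RRM2 were highest on the array labelled J3T-1shA by their other probe sets. CENPF and MCM6 were then highest on the one labelled J3T-2A. The lowest signal was on the array labelled J3T-2 for 14 genes (41.2%, against 27.9%), on the one labelled J3T-1 for 13 (38.2%, against 26.3%), on the one labelled J3T-2A for 4 (11.8%, against 17.9%) and on the one labelled J3T-1shA for 3 (8.82%, against 28.0%).

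**Figure D1:**
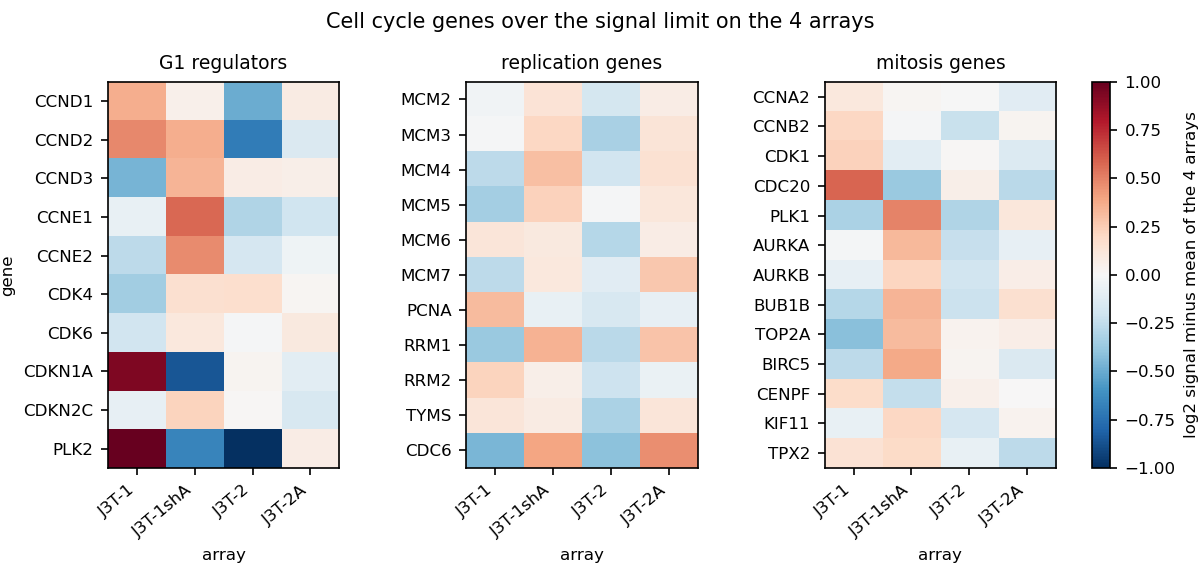
Log2 signal of each measured cell cycle gene on each array minus the gene's mean over the 4 arrays, in colour (red higher, blue lower), for 10 G1 regulators, 11 replication genes and 13 mitosis genes, 1 array per line. PLK2 and CDKN1A stand out as high on the array labelled J3T-1, and the array labelled J3T-1shA has the highest signal for 18 of the 34 genes.

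Among G1 regulators, the D-type cyclins split, with CCND1 and CCND2 lowest on the array labelled J3T-2 and CCND3 lowest on the one labelled J3T-1. CCND1, the cyclin D1 that links growth factor signals to the cycle, had signals of 9435 on the array labelled J3T-1, 7784 on the one labelled J3T-2A, 7615 on the one labelled J3T-1shA and 5209 on the one labelled J3T-2. J3T-1 was thus 1.81-fold and J3T-2A 1.49-fold over J3T-2, and the second probe set gave log2 ratios of 0.97 and 0.69 where the first gave 0.86 and 0.58. CCND2, the cyclin D2 of many neural progenitors, had 5640 on the array labelled J3T-1, 5198 on the one labelled J3T-1shA, 3664 on the one labelled J3T-2A and 2484 on the one labelled J3T-2. Its log2 ratio was 1.18 in the parental pair, 0.56 in the overexpression pair and 0.12 in the knockdown pair, by its only probe set. In both cyclins the 2 lines of J3T-1 origin stood closer to each other than the 2 of J3T-2 origin. CCND3 ran the other way, at 316.0 on the array labelled J3T-1, 454.3 on the one labelled J3T-2A, 460.2 on the one labelled J3T-2 and 552.7 on the one labelled J3T-1shA, which made J3T-1 1.75-fold lower than J3T-1shA.

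The E-type cyclins, which drive the G1 to S step, were highest on the array labelled J3T-1shA. CCNE2 had 968.0 there, against 677.1 on the array labelled J3T-2A, 620.3 on the one labelled J3T-2 and 581.5 on the one labelled J3T-1, so that J3T-1 was 1.66-fold lower than J3T-1shA. CCNE1 had 429.6 on the array labelled J3T-1shA and 233.0 to 273.6 on the other arrays, but its second probe set put the knockdown pair log2 ratio at -0.28 in place of -0.65. The kinase genes differed less. CDK4, the main partner of D-type cyclins, had 5839 on the array labelled J3T-1, against 7527 to 8378 elsewhere, a log2 ratio of -0.51 in the knockdown pair and of -0.52 in the parental pair, with -0.45 and -0.48 by its second probe set. CDK6 had 249.1 to 306.7, close to the signal limit on every array. CDK2, the kinase of E-type cyclins, was under the limit throughout (93.7 to 174.9), as was the transcription factor E2F1 (76.6 to 151.5).

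The inhibitor CDKN1A and the kinase PLK2 had the largest ratios between J3T-1 and J3T-1shA among the measured members. CDKN1A, whose protein p21 blocks cyclin-dependent kinases and binds PCNA, had 9952 on the array labelled J3T-1, 5319 on the one labelled J3T-2, 4827 on the one labelled J3T-2A and 2877 on the one labelled J3T-1shA. J3T-1 was the highest and J3T-1shA the lowest, a 3.46-fold difference. All 3 CDKN1A probe sets gave this order at both ends, with log2 ratios of 1.79, 1.93 and 2.05 in the knockdown pair, while the overexpression pair was within 0.14 of 0 in each (-0.14, 0.09 and -0.03). J3T-1 was also 1.87-fold over J3T-2. CDKN2C, the p18 inhibitor of CDK4 and CDK6, was even across the lines (7506 to 9776). CDKN1B was under the limit on all arrays (65.6 to 196.7), so no ratio is read from it.
PLK2, a polo-like kinase active in G1 and in centriole duplication and a known p53 target, had 1076 on the array labelled J3T-1, 272.6 on the one labelled J3T-2A, 163.3 on the one labelled J3T-1shA and 93.0 on the one labelled J3T-2. The lower array of each pair was under the limit, and PLK2 entered the measured genes through the array labelled J3T-1. The listed signals gave ratios of 6.59 in the knockdown pair and 2.93 in the overexpression pair, each against an array under the limit, so these sizes are uncertain. With 80 added to every signal their log2 values were 2.25 in place of 2.72 and 1.03 in place of 1.55. The second probe set gave 3.01 and 2.35.

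**Figure D2:**
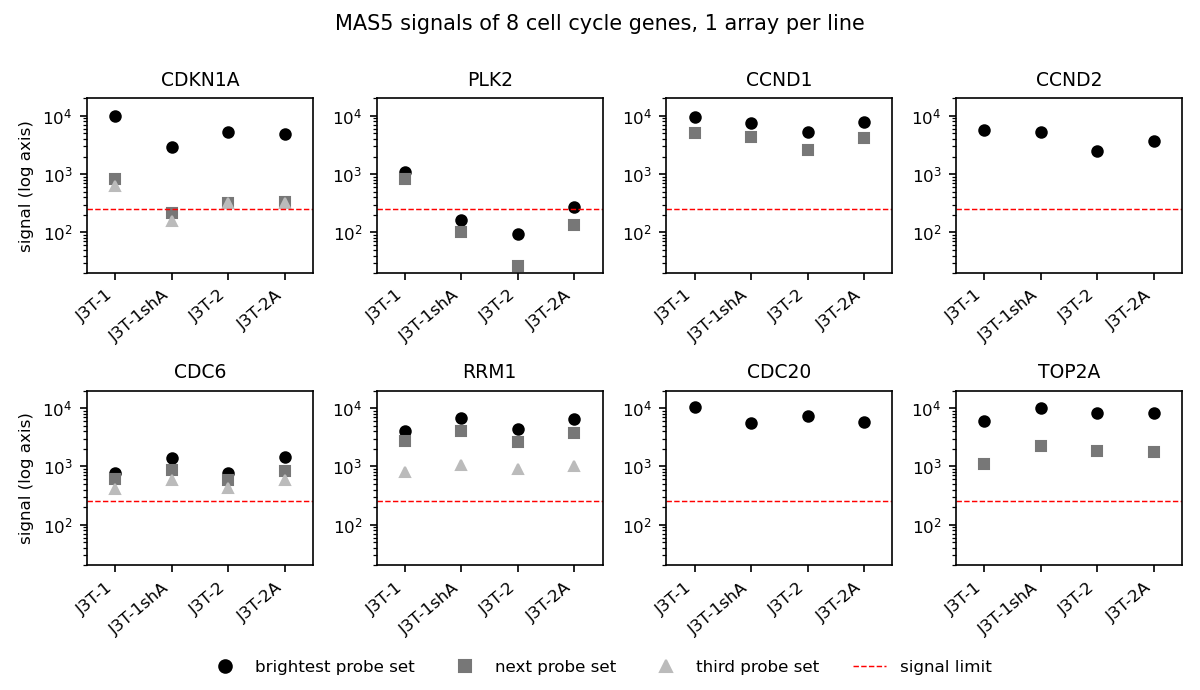
Signals on a log axis of 8 cell cycle genes on the 4 arrays, 1 array per line, with each probe set of a gene as its own symbol and the signal limit of 250 as a dashed line. CDKN1A and PLK2 are highest on the array labelled J3T-1 by every probe set, and CDC6 and RRM1 are higher on the arrays labelled J3T-1shA and J3T-2A than on the remaining arrays by every probe set.

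All 11 replication genes had higher signals in J3T-2A than in J3T-2, each by less than 2-fold. Ratios above 1 were found for 50.4% of all genes (below 1 for 49.5%), and the 11 had a median log2 ratio of 0.36 and a range of 0.08 to 0.88, where the median of all genes was 0.00. In the knockdown pair the ratio was below 1 for 7 of 11 and above 1 for 4 (46.7% and 53.2% of all genes), with a median of -0.22 and a range of -0.85 to 0.39, against 0.03 over all genes. In the parental pair the median was 0.14, with 6 of 11 above 1 (52.8% of all genes).
CDC6, the ATPase that loads the MCM helicase onto origins, had the widest span of the replication genes. Its signals were 758.2 and 783.2 on the arrays labelled J3T-1 and J3T-2, against 1369 on the one labelled J3T-1shA and 1437 on the one labelled J3T-2A. J3T-2A was 1.84-fold higher than J3T-2 and J3T-1 was 1.81-fold lower than J3T-1shA. The other 2 CDC6 probe sets kept both directions at smaller sizes, with log2 ratios of 0.51 and 0.46 for the first comparison and -0.47 and -0.51 for the second. RRM1, the large subunit of the ribonucleotide reductase that makes DNA precursors, was likewise lower in both unmodified lines, with 4100.3 and 4401 on the arrays labelled J3T-1 and J3T-2 and 6765 and 6474 on those labelled J3T-1shA and J3T-2A, and J3T-1 was 1.65-fold lower than J3T-1shA. Its other 2 probe sets gave 0.50 and 0.19 in the overexpression pair and -0.55 and -0.39 in the knockdown pair, where the brightest gave 0.56 and -0.72.
The 6 MCM genes encode the ring of the replicative helicase. MCM5 (3536 on the array labelled J3T-1 against 5264 on the one labelled J3T-1shA) and MCM4 (2225 against 3296) both had a log2 ratio of -0.57. Further probe sets gave -0.84 and -0.94 for MCM5, and -0.52 and -0.34 for MCM4. MCM7 and MCM3 had -0.37 and -0.22, and MCM2 and MCM6 lay at -0.17 and 0.02. The second probe sets of MCM7 and MCM6 gave -0.28 and -0.13. In the overexpression pair the 6 ranged from 0.13 (MCM5) to 0.45 (MCM3) by their brightest probe sets, and the further MCM5 probe sets gave 0.39 and 0.09. MCM2 had 518.1 to 641.7 across the arrays and MCM6 had 10281 to 13641. The remaining genes did not share the lower values in J3T-1. PCNA, the sliding clamp of DNA polymerase, had its highest signal on the array labelled J3T-1 (9992, against 7179.8 to 7613 on the others). RRM2 (3994 to 5376), the small reductase subunit, and TYMS (2755 to 3730.0), which makes thymidylate, had log2 ratios of 0.16 and 0.04 in the knockdown pair, and both were lowest on the array labelled J3T-2. Further probe sets gave -0.0062 for RRM2, and 0.08 and -0.10 for TYMS, in the knockdown pair.

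Mitosis genes had no clear common direction between J3T-2A and J3T-2, with 7 of 13 above 1 (53.8%, against 50.4% of all genes), and 8 of 13 had lower signals in J3T-1 than in J3T-1shA (61.5%, against 46.7%). Their median log2 ratio was 0.04 in the overexpression pair and -0.28 in the knockdown pair, with a range of -0.81 to 0.96 in the latter. With the median of all probe sets of each gene, 10 of 13 were above 1 in the overexpression pair, with a median of 0.18, and 9 of 13 were below 1 in the knockdown pair. For the parental pair the median was 0.11.
Of the mitotic kinases, PLK1, which acts in mitotic entry and spindle assembly, had 1198 on the array labelled J3T-1shA, 915.8 on the one labelled J3T-2A, 689.3 on the one labelled J3T-2 and 681.7 on the one labelled J3T-1. J3T-1 was 1.76-fold lower than J3T-1shA. BUB1B, the checkpoint kinase BUBR1, had the same order, with 1466, 1298, 999.8 and 954.4, and J3T-1 was 1.54-fold lower than J3T-1shA. The aurora kinase genes AURKA and AURKB also had their highest signals on the array labelled J3T-1shA (1758 and 3138). Their log2 ratios of -0.34 and -0.29 in the knockdown pair were within the SD of 0.35 between probe sets. The second probe sets gave -0.14 and -0.36. CDK1, the kinase of mitotic entry, could not be given a direction there, at 0.33 by its brightest probe set and -0.20 and -0.38 by the other two.
TOP2A, the topoisomerase that untangles chromosomes, had 5972 on the array labelled J3T-1, 8139.7 on the one labelled J3T-2, 8342 on the one labelled J3T-2A and 9914 on the one labelled J3T-1shA, with log2 ratios of -0.73 and -1.03 in the knockdown pair by its 2 probe sets. BIRC5, the chromosomal passenger survivin, had 2543 against 3981 on these arrays, and -0.65 and -0.96. The motor gene KIF11 and the spindle factor TPX2 had -0.28 and -0.04, and the second TPX2 probe set gave -0.57.
CDC20, the activator of the anaphase-promoting complex, had the largest ratio of the mitosis genes in the other direction. It had 10625 on the array labelled J3T-1, 7383 on the one labelled J3T-2, 5863 on the one labelled J3T-2A and 5478 on the one labelled J3T-1shA, which made J3T-1 1.94-fold higher than J3T-1shA by its only probe set. The cyclin gene CCNA2 (1622 to 1888) was close to even. CCNB2 (3615 to 4865) was lowest on the array labelled J3T-2, with log2 ratios of 0.43 and 0.55 in the parental pair by its brightest and second probe sets. The kinetochore gene CENPF had 623.7 to 833.7, and its probe sets differed in sign, at 0.42 and -0.31 in the knockdown pair. The Entrez identifier of the first of these probe sets was not found in the RefSeq gene table, nor were those of all CDC20, CDK1, CDK2 and MCM7 probe sets, which are named here by the array annotation alone. CDC25B, the phosphatase that activates CDK1, was under the limit on average, with 379.1 on the array labelled J3T-1, against 120.6 to 164.0 elsewhere. No probe set with a single symbol was listed here for CCNB1, BUB1, MAD2L1, MKI67, CENPE and KIF20A, and their signals are not analysed here.

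Counted by size, few members stood far apart. Between J3T-2A and J3T-2, 1 of 34 members differed by over 2-fold (2.94%, against 2.72% of all genes), and this was PLK2. Over 1.5-fold, 2 were higher (PLK2 and CDC6, 5.88%, against 4.85%) and 0 were lower (against 5.33%). Between J3T-1 and J3T-1shA, 2 members differed by over 2-fold, PLK2 and CDKN1A (5.88%, against 7.01%), and 3 were over 1.5-fold higher once CDC20 is added (8.82%, against 10.1%). These shares are close to those of all genes. PLK2 was under the limit on the lower array of every pair, and without it 0 members were over 2-fold different in the overexpression pair, 1 in the knockdown pair and 1 in the parental pair. In the knockdown pair 9 members were over 1.5-fold lower (26.5%, against 9.86%), namely CCND3, CCNE1, CCNE2, CDC6, RRM1, PLK1, BUB1B, TOP2A and BIRC5. This list depends on the probe set. By their other probe sets CCNE1 (1.22-fold), CDC6 (1.38 and 1.42) and RRM1 (1.47 and 1.31) were under 1.5-fold lower. TOP2A (2.05) and BIRC5 (1.95) stayed over it, and MCM5, not in the list, was over it (1.79 and 1.92). Between J3T-1 and J3T-2, 2 differed by over 2-fold, PLK2 and CCND2 (5.88%, against 5.68%). There 4 were over 1.5-fold higher, the same 2 with CCND1 and CDKN1A (11.8%, against 8.40%), and 0 were lower (against 10.1%).

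The overexpression and knockdown pairs share no array. Of the 34 members, 16 were higher in the first and lower in the second (47.1%, against 26.5% of all genes), and these were 7 of 11 replication genes, 6 of 13 mitosis genes and 3 of 10 G1 regulators. In both pairs these 16 were higher in the engineered line than in its unmodified parent. The opposite pattern held for 5 (14.7%, against 29.3%), namely CDKN1A, CCNA2, CDK1, CDC20 and CENPF. By their second probe sets CDK1 (0.18 and -0.20) and CENPF (0.26 and -0.31) had the reverse signs in both pairs. The second CDKN1A probe set had 0.09 in the overexpression pair. Another 8 were higher in both (23.5%, against 24.0%), with PLK2, CCND1, CCND2, PCNA and TYMS among them, and 5 were lower in both (14.7%, against 20.3%), with CDK4 and CCND3 among them. Ratios smaller than the SD between probe sets are among these, and 17 of 23 members with a second measured probe set kept their sign in the first comparison and 19 of 23 in the second.

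**Figure D3:**
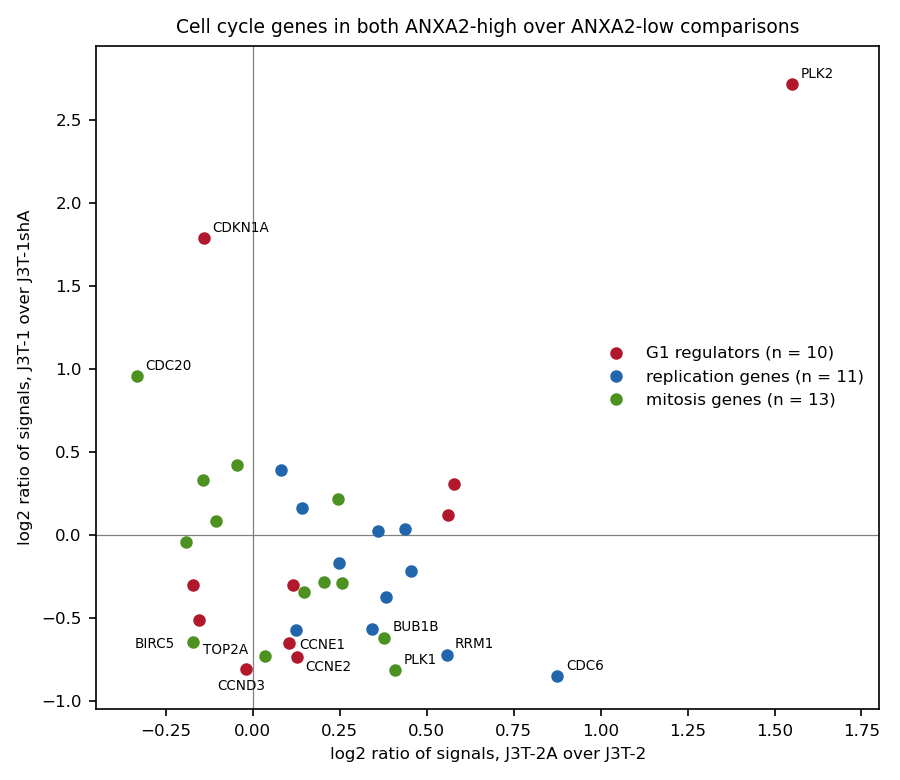
Log2 ratios of 34 cell cycle genes for J3T-2A over J3T-2 (x axis) and J3T-1 over J3T-1shA (y axis), 1 array per line, coloured by phase, with genes over 1.5-fold different in either comparison named. All 11 replication genes (blue) lie to the right of 0, with CDC6 at 0.88 and -0.85, while PLK2 lies far from 0 on both axes.

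Further replication genes, which are no members, had list medians of the same sign as the members' in both engineered pairs. Further mitosis genes had the members' sign in the knockdown pair. In the overexpression pair the mitosis members, by their brightest probe sets, had a median of only 0.04 and no clear common direction, unlike the further mitosis genes. With the median of all probe sets of each gene, 10 of 13 members were above 1, with a median of 0.18. This contrast thus depends on the probe sets used. Of 39 other measured replication genes (of 44 named), 35 had ratios above 1 in the overexpression pair (89.7%, against 50.4% of all genes), with a median log2 ratio of 0.24, and 27 had ratios below 1 in the knockdown pair (69.2%, against 46.7%), with a median of -0.14. Among them ORC1, a subunit of the origin recognition complex, reached 0.84 in the overexpression pair, and the replication initiator MCM10 reached -0.83 in the knockdown pair. None of the 39 was over 2-fold different in either comparison. Of 62 other measured mitosis genes (of 71), 51 were above 1 in the first comparison (82.3%, median 0.23) and 47 were below 1 in the second (75.8%, median -0.25). There GTSE1, a regulator of p53 and microtubules, was the only one over 2-fold lower in J3T-1 than in J3T-1shA (706.8 against 1505), with 1245 in J3T-2A and 1038 in J3T-2. WEE1, the kinase that holds CDK1 inactive, was the only one over 2-fold lower in J3T-1 than in J3T-2 (560.0 against 1237), and it had 1110.2 on the array labelled J3T-1shA and 1138 on the one labelled J3T-2A. For the parental pair the medians were 0.18 for other replication and 0.12 for other mitosis genes. Of 25 other G1 and E2F pathway genes only 9 were measured, with medians of -0.04 in the overexpression pair, 0.04 in the knockdown pair and -0.02 in the parental pair. MYC, an upstream driver of the cycle, was the only one of these over 2-fold different, with 809.6 on the array labelled J3T-1, 577.1 on the one labelled J3T-2A, 465.0 on the one labelled J3T-2 and 394.6 on the one labelled J3T-1shA, a log2 ratio of 1.04 in the knockdown pair.

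**Figure D4:**
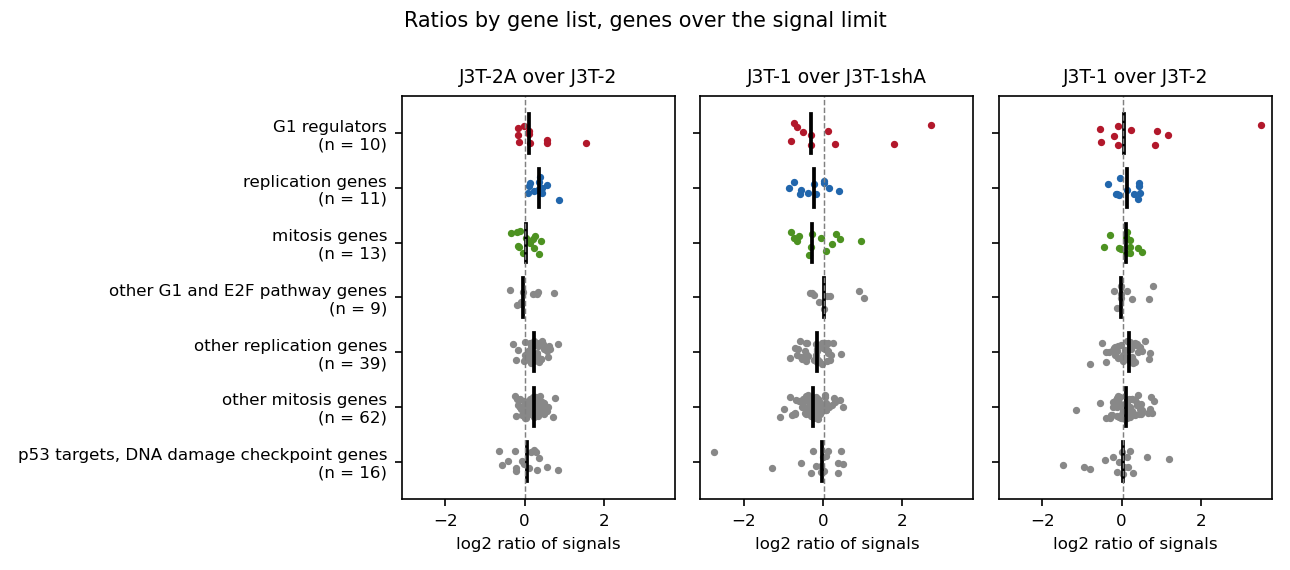
Log2 ratios of the measured genes of each list in the 3 comparisons, 1 array per line, with each point a gene, black bars the list medians and dashed lines the median of all 6581 genes. The replication bars lie to the right of the dashed line for J3T-2A over J3T-2 (0.36 and 0.24) and to its left for J3T-1 over J3T-1shA (-0.22 and -0.14).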

How the data were processed

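Total RNA of each line was labelled and hybridized to 1 GeneChip Canine Genome 2.0 array. Signals are intensities on a linear scale, made by the authors in MAS5 (default settings, global scaling) for each array alone. Their methods give a trimmed-mean target of 100 (the deposited columns lie about 5 times higher), and the deposited table holds no detection calls. The genome build is not given in the sources used here, so no positions are printed.

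Of 42924 probe sets, 29254 had 1 symbol in the array annotation, 439 had several and 13231 were not listed. Entrez identifiers of 27680 matched RefSeq, which changed 0 symbols. Of the 72 member probe sets, 64 matched. Log2 ratios of single arrays were taken without pseudocount, in Python 3.11.15 with pandas 2.3.3, and the steps were tested on simulated data. Genes were called different at 2-fold or 1.5-fold. Members over 1.5-fold different, and the brightest and dimmest of each phase, were named with their signals, as were genes of the other lists over 2-fold different. ORC1, MCM10, MDM2, CCNG1, BAX, PPM1D, BTG2 and MDM4 were named after their values were seen. The other lists hold further G1 and E2F, replication, mitosis, and p53 target and DNA damage genes. The members and lists were chosen with earlier results of these data known. Alternatives were signal limits, a pseudocount of 80, the median of all probe sets, quantile normalization and median centring. The P value of the authors' criterion needs probe-level data and was not computed.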

Additional observations from a re-analysis of the deposited data

Results flagged for a closer look

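CDC6 ran in opposite directions in the 2 comparisons of a line labelled ANXA2-high over one labelled ANXA2-low, with a log2 ratio of 0.88 for J3T-2A over J3T-2 and -0.85 for J3T-1 over J3T-1shA. So did the median of the replication genes, at 0.36 and -0.22, and the median of the G1 regulators, at 0.11 and -0.30, although the G1 values lost their opposite signs with a signal limit of 500 (-0.0068 and -0.092) and 0.11 is below the SD of 0.27 between probe sets. With 1 array per line none of these differences was tested. The 2 brightest ANXA2 probe sets did not separate the lines by their labels. The second of them had a log2 ratio of 0.23 in the overexpression pair, the labelled direction, and -0.09 in the knockdown pair. Their signals of 24128 to 35651 lay high on arrays whose highest signals were 44435 to 46646. The part of cell density, of growth state at harvest or of the engineering itself was not tested.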

How the results depend on the processing

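Quantile normalization, median centring and a pseudocount of 80 left all phase medians within 0.1 (log2) of the values above and all counts within 1.5 times. With a signal limit of 500 the G1 medians rest on 6 genes and became -0.0068 in the overexpression pair (main value 0.11), -0.092 in the knockdown pair (-0.30) and 0.38 in the parental pair (0.07). PLK2 is then left out, so that 0, 1 and 1 members were over 2-fold different, and 1 was over 1.5-fold higher in J3T-2A. With no limit, which adds 4 dim genes, the mitosis median of the knockdown pair was -0.16 and the G1 median of the parental pair was -0.092. Then 1 member was over 1.5-fold lower in J3T-2A than J3T-2, 5 were higher in J3T-1 than J3T-1shA, and 4 were over 2-fold different and 2 over 1.5-fold lower between J3T-1 and J3T-2. A limit on the higher of the compared arrays also gave -0.16 for that mitosis median, because it adds CDC25B. The median of all probe sets gave 0.18 for mitosis genes in the overexpression pair, -0.42 for G1 regulators in the knockdown pair, and, in the parental pair, 0.031 for replication genes and 2 members over 1.5-fold lower. Of 702 single-gene values under the alternatives, 12 moved by more than the SD between probe sets and 0 of the called ones reversed. No paired analysis was possible because each line has 1 array and the labels give no replicate numbers.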

Other observations

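Of 16 measured p53 target and DNA damage genes (of 28 named), 2 were over 2-fold different between J3T-1 and J3T-1shA, both lower in J3T-1 (12.5%, against 7.01% of all genes), while CDKN1A was higher there. GADD45B, a stress-induced growth arrest gene, had 3261 on the array labelled J3T-1shA, 479.5 on the one labelled J3T-1, 379.5 on the one labelled J3T-2A and, lowest, 210.1 on the J3T-2 array, by 1 probe set. SESN1, the p53-induced sestrin 1, had 2120.2 on the array labelled J3T-1shA and 709.1 to 1047 on the others, with log2 ratios of -1.23 to -1.70 in the knockdown pair across its 5 probe sets. MDM2, the main negative regulator of p53, had log2 ratios of 0.38 there and -0.24 in the overexpression pair. CCNG1 and BAX of the same list had 0.51 and 0.38 in the knockdown pair. PPM1D, BTG2 and MDM4 of the list had ratios below 1 in the knockdown pair, at -0.55, -0.06 and -0.01. In that pair 7 of the 16 had ratios above 1 and 9 below 1 (53.2% and 46.7% of all genes). CCNG2, a cyclin of resting cells, had 992.9 on the array labelled J3T-2, 749.4 on the one labelled J3T-2A, 401.1 on the one labelled J3T-1shA and 354.9 on the one labelled J3T-1, a log2 ratio of -1.48 for J3T-1 over J3T-2, and -1.43 by its second probe set. The medians of the list were 0.05, -0.03 and 0.03 in the overexpression, knockdown and parental pairs.

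The pair J3T-2A over J3T-1shA, which the study did not compare, held the narrowest spread of ratios of the 11 replication genes among the 6 pairs of arrays. They lay between -0.15 and 0.16 (log2), with an interquartile width of 0.12 against 0.38 for all genes. The widths in the other 5 pairs were 0.25 to 0.60. For the 39 other replication genes the width was 0.28 in this pair and narrower, 0.26, in J3T-2A over J3T-2. These arrays carry opposite ANXA2 labels and come from different lines of origin. Both are of engineered lines, and without a vector control array the part of the engineering itself was not tested.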
